A study of Mus musculus with 9 samples.

Results

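Integrins are the receptors by which fibroblasts hold on to the extracellular matrix. The genes described here are 10 integrin subunits that bind collagen, laminin or fibronectin and related matrix proteins: Itga1, Itga11, Itga3, Itga6, Itga7, Itga5, Itgav, Itgb1, Itgb3 and Itgb5. They were chosen by name, as subunits for matrix ligands, from the 56691 genes of the deposited table, and each symbol matched 1 row. That choice was made with earlier results of these data known. RNA came from NIH/3T3, an established line of mouse embryonic fibroblasts labelled WT, in 3 groups of 3 libraries. Control cells carry no stated treatment, UVA cells were irradiated with UVA at 10 J/cm2, and the last group (co-treated cells) was given α-arbutin, a hydroquinone glucoside, along with the same irradiation. The labels give neither the dose nor the timing of α-arbutin, nor the time of harvest, and do not say whether the libraries of a group came from separate cultures. The p-values therefore measure the spread between these libraries, which may be technical. The study asked whether α-arbutin counters UVA damage, above all in DNA repair and collagen synthesis.

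An integrin is a heterodimer of 1 alpha and 1 beta subunit, both of which cross the plasma membrane. The alpha subunit largely sets which ligand is bound, and the beta tail binds talin and kindlin, which activate the receptor and link it to actin. The beta1 subunit pairs with all the alpha subunits described here. Alone among them, alphav also pairs with beta3 and beta5. An alpha subunit without a free beta partner is held back in the cell, so that transcript levels of the alpha genes need not equal receptor levels on the surface. In skin fibroblasts integrins carry matrix attachment, fibronectin fibril assembly, collagen contraction and the release of latent TGF-beta.

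Total counts ran from 16298348 to 20862894 per library, and 14151 genes had enough counts to be tested. Levels within a gene are given in CPM, counts scaled to the library total with TMM factors. Levels of different genes are compared as FPKM, which also divides by exonic length. All 10 fibroblast markers had counts, except that Lum had 0 in the UVA libraries. The list, which shares Col1a1, Col1a2 and Col3a1 with the collagen ligands below, summed to 8057 to 8339 CPM in control libraries, 6013 to 6259 CPM with UVA and 5702 to 6043 CPM with co-treatment, and 7 of 9 tested markers fell in UVA cells. Vim, vimentin, went the other way, from 2721 ± 37.8 to 3590 ± 166 CPM (SD, n = 3), at 0.40 ± 0.04 on the log2 scale. Of all tested genes 14.6% were called lower and 14.7% higher in this comparison. Markers of epithelium, endothelium, immune cells and muscle summed to at most 4.59, 7.41, 9.93 and 3.35 CPM in any library, with Epcam, Krt5, Cd3e and Myod1 at 0 throughout. Others had counts: over the control and UVA libraries Cdh1 had 103 and 154, Cdh5 171 and 210, Emcn 134 and 56, Cd68 170 and 264 and Lyz2 254 and 128. Of 3 tested immune markers 1 was called higher and 2 lower with UVA. Of 2 tested endothelial markers 1 was called lower. The 1 tested epithelial and the 1 tested muscle marker were not called. Adipocyte markers summed to 31.5 to 33.5 CPM in control libraries, 14.01 to 17.2 CPM with UVA and 15.7 to 18.6 CPM with co-treatment. Lpl, lipoprotein lipase, made up most of that sum, with 1723 counts over the control and 773 over the UVA libraries, while Adipoq, Plin1 and Cidec had 0 to 4 counts per group. The part of these marker shifts in the integrin results was not tested. In bulk RNA, fewer cells of a type and less RNA per cell cannot be told apart.

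Per exonic length, the cells carried mostly beta1 mRNA with 4 abundant alpha mRNAs. In control libraries Itgb1, the common beta chain, stood at 218, 226 and 215 FPKM. Itga3, a laminin receptor chain, followed at 42.6, 41.03 and 42.1 FPKM, ahead of Itgav at 31.5, 30.8 and 31.3 FPKM. Itga5, the alpha chain of the main fibronectin receptor, had 29.8, 28.7 and 28.3 FPKM. Itga6, another laminin receptor chain, had 19.1, 19.01 and 18.3 FPKM and Itgb5, which pairs with alphav in a vitronectin receptor, 12.1, 13.4 and 11.9 FPKM. None of these neighbours in the order overlapped in the control libraries. Far below them, Itga7 (0.28 to 0.46 FPKM) and Itgb3 (0.25 to 0.33 FPKM) overlapped each other, and Itga1 and Itga11 did not pass 0.03 FPKM. The order of the abundant alpha genes differed in irradiated cells: there Itga5, at 31.6 to 36.4 FPKM in UVA libraries, stood above Itgav, at 25.95 to 27.7 FPKM. These levels rest on the authors' exonic sizes, which add up all exons of a gene.

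UVA was first set against control, to see how irradiation alone left these receptor mRNAs. Of the 8 subunits that could be tested, 3 alpha genes rose (Itga3, Itga5 and Itga6), 2 genes fell (Itgav and Itgb5), and Itgb1, Itga7 and Itgb3 did not pass. Each change was small, from 12.2% to 22.1% upward and from 13.2% to 20.8% downward. In this comparison 29.3% of all tested genes were called, 14.7% higher and 14.6% lower, so a call alone does not set these genes apart. The groups did not overlap for the 5 called subunits, nor for 42% of all tested genes (21.1% higher, 20.9% lower). The median log2 fold change of the 8 genes was -0.05, against 0.0029 over all tested genes.

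**Figure D1:**
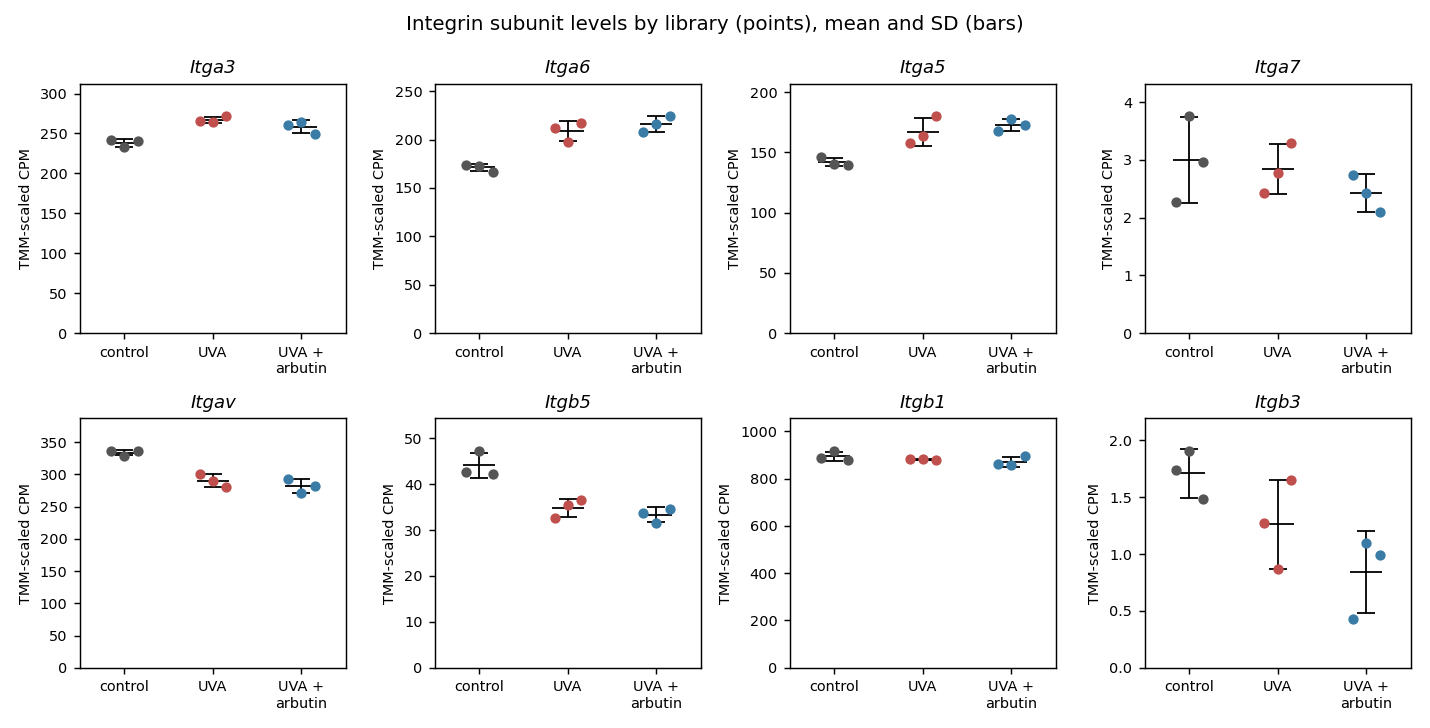
Levels of the 8 tested integrin subunits in TMM-scaled CPM (y axis, from 0) in control, UVA and co-treated libraries (x axis); points are libraries, the wide bar is the mean and the whisker 1 SD (n = 3). Itga3, Itga6 and Itga5 lay higher and Itgav and Itgb5 lower in every irradiated library than in every control library, while Itgb1 stayed between 855 and 917 CPM in all 9.

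Among the laminin-binding subunits, Itga6 changed most. Itga6 encodes the alpha6 chain (ENSMUSG00000027111, chromosome 2, 71575960 to 71688760, plus strand, on mm39), and had 174, 173 and 167 CPM in control libraries. It had 212, 197 and 217 CPM in UVA libraries and 208, 216 and 224 CPM in co-treated libraries. Every irradiated library lay above every control library, by more than the spread within either group. The log2 fold change with UVA was 0.29 ± 0.04 (SE; 95% interval 0.20 to 0.38; edgeR adjusted p = 9.61e-06).

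Itga3 encodes the alpha3 chain (ENSMUSG00000001507, chromosome 11, 94935300 to 94967627, minus strand) of a laminin receptor with beta1. It had 242, 233 and 240 CPM in control libraries, and 266, 264 and 272 CPM in UVA libraries. In co-treated libraries it had 261, 265 and 249 CPM. The control libraries were the lowest 3 of the 9, and the rise with UVA was 0.17 ± 0.04 on the log2 scale (edgeR adjusted p = 0.00185). Itga7, the alpha7 chain best known from skeletal muscle (chromosome 10, 128769645 to 128794155), was scarce: 39, 67 and 62 counts in control libraries, 44, 45 and 66 with UVA and 45, 42 and 38 with co-treatment. These ranges overlapped, and at this depth the 95% interval of the log2 fold change with UVA ran from -0.55 to 0.40 (edgeR adjusted p = 0.849), so that neither a moderate rise nor a moderate fall was detectable. The end of Itga7 overlaps Mettl7b on the other strand by 13 bases.

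The alpha chain mRNAs of the main fibronectin receptor and of the vitronectin receptors moved apart. Itga5 (ENSMUSG00000000555, chromosome 15, 103252713 to 103275190, minus strand) had 146, 141 and 139 CPM in control libraries. It had 158, 164 and 180.01 CPM in UVA libraries and 168, 177 and 173 CPM in co-treated libraries. The groups did not overlap with the control, and UVA replicate 3 was the highest of all 9. The log2 fold change with UVA was 0.24 ± 0.05 (edgeR adjusted p = 0.000344). Itgav (ENSMUSG00000027087, chromosome 2, 83554741 to 83637260, plus strand), the alpha chain shared by the vitronectin receptors, went the other way. Its control libraries had 336, 329 and 336 CPM, its UVA libraries 300.0, 290 and 280 CPM and its co-treated libraries 292, 271 and 282 CPM. No irradiated library reached the lowest control, and the fall was -0.20 ± 0.04 on the log2 scale (95% interval -0.29 to -0.12; edgeR adjusted p = 0.000248). Gm13684 and the pseudogene Dnmt3l-ps1 lie across Itgav on the other strand with 31 and 5 counts over all 9 libraries.

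Of the beta chains, Itgb5 fell and Itgb1 did not measurably change. Itgb5 (ENSMUSG00000022817, chromosome 16, 33650035 to 33769708, plus strand) had 42.7, 47.3 and 42.3 CPM in control libraries, 32.7, 35.5 and 36.5 CPM in UVA libraries and 33.8, 31.5 and 34.6 CPM in co-treated libraries. Every irradiated library lay below every control library, while the UVA and co-treated libraries overlapped. The log2 fold change with UVA was -0.34 ± 0.07 (95% interval -0.48 to -0.19; edgeR adjusted p = 0.000421), the largest of the called falls. Itgb1 (ENSMUSG00000025809, chromosome 8, 129412135 to 129459681, plus strand) had 886, 917 and 878 CPM in control and 882, 881 and 877 CPM in UVA libraries. The 95% interval of its fold change ran from 0.938 to 1.03 (edgeR adjusted p = 0.693). Itgb3, the partner of alphav in the receptor that osteoclasts also use (chromosome 11, 104498826 to 104561302), had 30, 34 and 31 counts in control and 23, 14 and 33 counts in UVA libraries. The groups overlapped, and the log2 fold change of -0.42 ± 0.34 did not pass (edgeR adjusted p = 0.397).

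The collagen-binding alpha chains were near the limit of detection. Itga1 (chromosome 13, 115089632 to 115238500), the alpha chain of the alpha1beta1 collagen receptor, had 2, 10 and 2 counts in control libraries, 1, 0 and 2 with UVA and 0, 2 and 0 with co-treatment. Itga11 (chromosome 9, 62585108 to 62691264), the alpha chain of a receptor for fibrillar collagen, had 3, 1 and 2 counts in control libraries, 2, 1 and 3 with UVA and 0, 3 and 1 with co-treatment. Neither passed the filter on low counts, and no difference was detectable at this depth, where a count of 0 allows up to 3 counts, or 0.184 CPM in the shallowest library. The Itga1 locus also holds the gene Pelo on the same strand, with 1726 counts over all libraries, and how the authors treated reads on shared bases is not given in the sources used here. The other collagen-binding alpha chains, outside the 10 genes, were low too: Itga2 had 0 to 2 counts per library. Itga10 had 21, 23 and 19 counts in control libraries, 36, 35 and 40 with UVA and 12, 27 and 21 with co-treatment. Its log2 fold change with UVA was 0.85 ± 0.31 (edgeR adjusted p = 0.0414), a call that ended without any single control or UVA library (adjusted p = 0.0607 to 0.164) and with DESeq2 (adjusted p = 0.101).

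**Figure D2:**
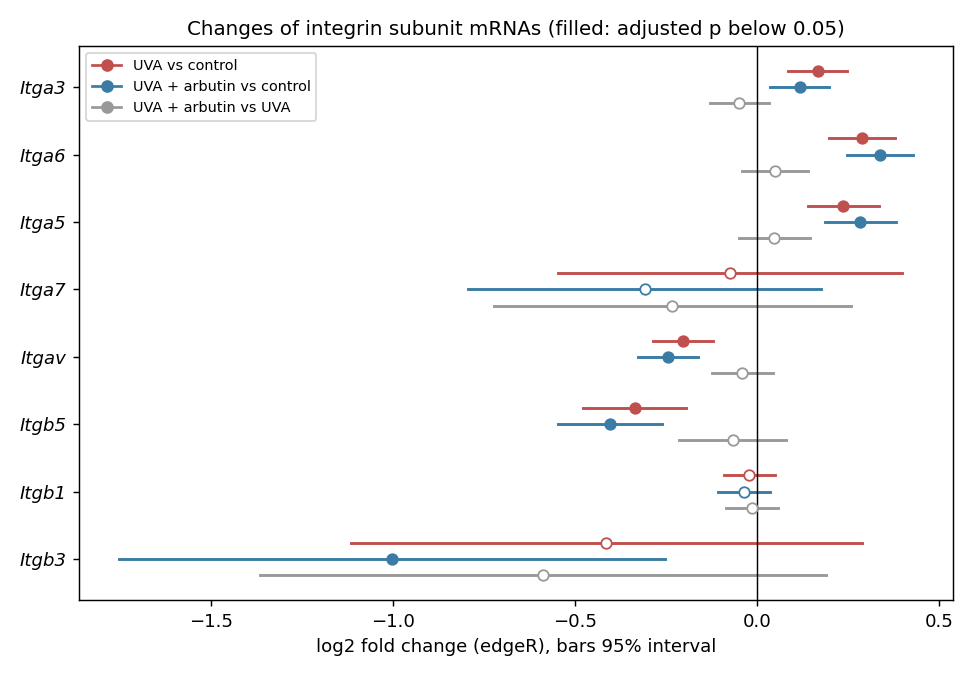
Log2 fold changes (x axis; edgeR, 95% interval as bars) of the 8 tested subunits (y axis) in the 3 comparisons; filled points have an adjusted p below 0.05. The UVA and the co-treated comparisons with control share their control libraries, and the co-treated against UVA values all have intervals across 0.

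Put together per library, the makeup of the alpha pool differed between control and irradiated cells. The summed FPKM of the 7 alpha genes was 121 ± 1.83 in control cells, 130.01 ± 3.37 with UVA and 130.2 ± 1.18 with co-treatment (SD, n = 3). Itgav made up 25.7% ± 0.268 of that sum in control cells, 20.6% ± 1.10 with UVA and 20.1% ± 0.896 with co-treatment (SD, n = 3). Itga5 held 23.8% ± 0.340, 25.9% ± 1.30 and 26.8% ± 0.619 in the same order of groups, and Itga6 15.5% ± 0.337, 17.4% ± 0.538 and 18.1% ± 0.719. Neither of these shares overlapped between control and irradiated libraries. Itga3 took 34.2% to 34.98% in control libraries, 35.4% to 36.1% with UVA and 33.6% to 35.3% with co-treatment, so that the UVA libraries lay above all others and the control and co-treated libraries overlapped. The ratio of Itga5 to Itgav FPKM was 0.902 to 0.946 in control libraries and 1.14 to 1.40 in UVA libraries. The summed alpha FPKM per Itgb1 FPKM was 0.552 ± 0.0182 in control and 0.607 ± 0.0159 in UVA cells (SD, n = 3), with ranges of 0.531 to 0.565 and 0.595 to 0.625. Itgb1 alone made up 94.3% to 95.9% of the FPKM of the 3 beta genes in every library. That sum leaves out the beta genes that are not among the members. Of those, Itgb7 had 7.62 ± 0.427 FPKM in control and 22.5 ± 2.71 FPKM in UVA cells (SD, n = 3). Itgb2 had 6.35 ± 0.639 and 6.13 ± 0.277 FPKM, and Itgb8 1.04 ± 0.0458 and 1.00 ± 0.145 FPKM. These shares and ratios are a description and were not tested, since they are built from the genes already tested above.

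**Figure D3:**
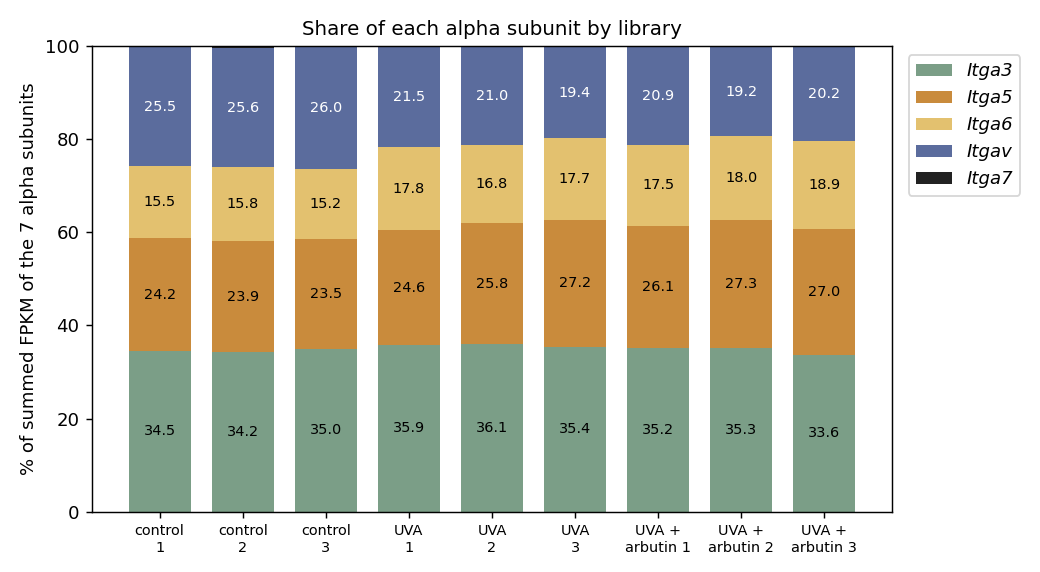
Share of each alpha gene in the summed FPKM of the 7 alpha genes (y axis, percent) in each of the 9 libraries (x axis, group and replicate number); numbers in the bars are the percentages, and Itga1 and Itga11 are too scarce to be drawn. The Itgav segment took 25.5% to 26.0% in control libraries and 19.2% to 21.5% in irradiated libraries.

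The stretches before the start sites of the genes that changed are shown because their mRNAs rose or fell together. RefSeq promoter entries were found for 7 of the 10 genes (not for Itga6, Itga7 and Itgb3), on build GRCm38.p6, which is older than the build of the count table. Printed are the 250 bases before the start site of Itga3 (chr11:95076715-95076964, minus strand) and Itga5 (chr15:103366792-103367041, minus strand), which rose, and of Itgav (chr2:83724147-83724396, plus strand) and Itgb5 (chr16:33829415-33829664, plus strand), which fell. Each reads 5′ to 3′ on the gene's strand, and capitals mark the GC box GGGCGG or its reverse complement.
Itga3: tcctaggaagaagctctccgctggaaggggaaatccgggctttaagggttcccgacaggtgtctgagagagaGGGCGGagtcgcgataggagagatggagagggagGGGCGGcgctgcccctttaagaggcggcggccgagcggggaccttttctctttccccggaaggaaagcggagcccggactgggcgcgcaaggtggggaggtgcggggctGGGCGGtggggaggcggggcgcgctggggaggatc
Itga5: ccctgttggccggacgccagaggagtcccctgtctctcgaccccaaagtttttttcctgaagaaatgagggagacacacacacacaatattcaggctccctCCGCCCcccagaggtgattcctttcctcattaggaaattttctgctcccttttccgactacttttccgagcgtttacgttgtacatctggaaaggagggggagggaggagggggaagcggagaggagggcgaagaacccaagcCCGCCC
Itgav: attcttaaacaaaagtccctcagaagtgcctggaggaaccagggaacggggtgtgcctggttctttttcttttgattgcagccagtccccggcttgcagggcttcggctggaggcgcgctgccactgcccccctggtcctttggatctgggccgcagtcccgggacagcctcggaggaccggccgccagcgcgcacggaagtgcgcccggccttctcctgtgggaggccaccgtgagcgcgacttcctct
Itgb5: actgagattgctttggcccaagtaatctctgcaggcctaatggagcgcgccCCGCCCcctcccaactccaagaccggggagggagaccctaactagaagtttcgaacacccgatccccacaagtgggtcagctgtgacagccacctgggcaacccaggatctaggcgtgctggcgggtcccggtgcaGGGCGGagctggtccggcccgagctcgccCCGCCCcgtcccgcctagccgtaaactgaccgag
The GC box was there 3 times in Itga3, 2 times in Itga5 and 3 times in Itgb5 but not in Itgav, against 32.7% of all 32851 RefSeq promoter windows of this length with at least 1. Genes with a GC box were thus found among those that rose and those that fell. The motif is made of G and C alone. The GC content of these windows was 67.6% for Itga3, 55.6% for Itga5, 64.4% for Itgav and 65.2% for Itgb5. The median over all promoter windows was 52.4%. The AP-1 motif TGANTCA, the TEAD motif GGAATG and the CArG box bound by SRF, searched on both strands, had no match in these 4 windows, and 6.7%, 12.6% and 1.5% of all windows hold them. A second Itga3 entry holds a single GC box. The Itgb1 window has a single GGAATG and a single GC box. A match or its lack describes these letters only.

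Whether α-arbutin moved these receptor mRNAs back was asked by setting co-treated against UVA libraries. By edgeR 0 of the 8 tested subunits were called, 0 had an unadjusted p below 0.05, and 0 were called by DESeq2 or limma. In this comparison 0.0353% of all tested genes were called (0.0283% higher, 0.00707% lower) and 6.76% had an unadjusted p below 0.05, so a count of 0 is near the background. UVA and co-treated libraries overlapped for all 8. Over all tested genes the groups did not overlap in 10.8% (5.45% higher, 5.31% lower), so this too is near the background. The log2 fold change was 0.05 ± 0.04 for Itga6 (95% interval -0.04 to 0.14) and 0.05 ± 0.05 for Itga5 (-0.05 to 0.14). It was -0.05 ± 0.04 for Itga3 (-0.13 to 0.03), -0.04 ± 0.04 for Itgav (-0.12 to 0.04) and -0.07 ± 0.07 for Itgb5 (-0.21 to 0.08). For Itgb1 it was -0.01 ± 0.03 (-0.09 to 0.06). For Itgav the upper bound of 0.04 is well short of the 0.20 that a full return to the control level would need, and for Itga6 and Itga5 the lower bounds of -0.04 and -0.05 stand against falls of 0.29 and 0.24. For Itgb5 a full return would need 0.34, and the upper bound is 0.08. For Itga3, which rose by 0.17 with UVA, the lower bound is -0.13, so a large part of a return lies within its interval. These comparisons take the UVA changes as fixed, although they have intervals of their own and share the UVA libraries. The intervals of Itga7 (-0.72 to 0.26) and Itgb3 (-1.37 to 0.19) are too wide to bound a change.

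Against unirradiated control, co-treated cells differed in 6 of the 8 tested subunits, 3 higher and 3 lower, where 25.8% of all tested genes were called (13% higher, 12.9% lower). The libraries of these 6 did not overlap with the control, as was so for 39.7% of all tested genes (19.8% higher, 19.9% lower). These values share the control libraries with those above and are no independent repeat. Itga6 stood at 0.34 ± 0.04 on the log2 scale (edgeR adjusted p = 9.19e-07) beside 0.29 in UVA cells, and Itga5 at 0.28 ± 0.05 beside 0.24. Itgav stood at -0.25 ± 0.04 (edgeR adjusted p = 2.92e-05) beside -0.20, and Itgb5 at -0.40 ± 0.07 beside -0.34. Itga3, at 0.12 ± 0.04 (edgeR adjusted p = 0.0297), lost its call without any single control library (adjusted p = 0.0562, 0.136 and 0.0741 without replicates 1, 2 and 3) and without co-treated replicate 1 (0.0678) or 2 (0.137). Itgb3 was also called here, with 7, 19 and 18 counts in co-treated against 30, 34 and 31 in control libraries and a fold change of 0.499 (95% interval 0.296 to 0.838; edgeR adjusted p = 0.0426). That call ended without any single control library (adjusted p = 0.0923, 0.128 and 0.0606 without replicates 1, 2 and 3), without co-treated replicate 1 (0.184) or 3 (0.0584), and with DESeq2 (0.0872). The Itgb3 difference between co-treated and UVA cells, -0.59 ± 0.38, did not pass (edgeR adjusted p = 0.826).

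Tested genes were ranked by likeness to a subunit over the 9 libraries, with provisional symbols such as Gm or Rik names left out. Nearest to Itga6, the called gene with the largest rise, were Akap8l, Myo1e and Iqgap1. Their root mean square differences from Itga6 in log2 CPM, each gene set to its own control mean, were 0.0319, 0.0329 and 0.0341. Closest to Itgb5, the called gene with the largest fall, were Plekha5, Ccdc82 and Lzts3, at 0.0547, 0.0577 and 0.0625. With UVA, log2 fold changes ran from 0.28 to 0.30 for the first 3 and from -0.40 to -0.32 for the others. That likeness follows from the choice of these genes on the same libraries and is no separate result.

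Of the 16 other integrin subunit genes in the table, 7 had enough counts to be tested and 2 of them, Itgb7 and Itga10, rose with UVA, or 28.6% beside 29.3% of all tested genes called. Itgb7, the beta7 chain known from lymphocyte homing receptors, was the larger change, at 2.99-fold. It had 350 to 452 counts per library in control and 991 to 1388 in UVA cells, or 21.02 ± 1.20 and 62.8 ± 7.39 CPM (SD, n = 3). The log2 fold change was 1.58 ± 0.08 (95% interval 1.42 to 1.74; edgeR adjusted p = 2.38e-15), and co-treated cells stood at 65.0 ± 1.06 CPM. The alpha partners of beta7 stayed low: Itga4 had 0 to 9 counts per library, and Itgae 15 to 48, with its log2 fold change of -0.45 ± 0.34 not passing (edgeR adjusted p = 0.355). Itgae overlaps Haspin, which has 4988 counts over all libraries, on the other strand. In FPKM Itgb7 went from 7.62 ± 0.427 to 22.5 ± 2.71 (SD, n = 3), from below to above the level of Itgb5. The beta4 gene Itgb4, partner of alpha6 in epithelial hemidesmosomes, had 25 to 35 counts in control and 40 to 50 in UVA libraries and did not pass (log2 fold change 0.58 ± 0.26; edgeR adjusted p = 0.0911).

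Genes for matrix ligands of these receptors moved both ways, with the largest named falls in collagens, fibrillin and thrombospondin. The ligand lists, and the partner lists below, were chosen with earlier results of these data known. Their shares called are therefore a description and no separate result. All 10 tested collagen ligand genes were called with UVA, 8 lower and 2 higher, with a median log2 fold change of -0.86, beside 29.3% called of all tested genes. Col1a1 was at -1.71 ± 0.07, Col3a1 at -1.39 ± 0.05, Col5a2 at -1.28 ± 0.06 and Col5a1 at -0.89 ± 0.05, while the basement membrane chains Col4a1 and Col4a2, named here after their values were seen, rose at 0.44 and 0.22. Of 8 tested laminin and nidogen genes 4 fell and 0 rose, with a median of -0.29, beside 14.6% of all tested genes lower. The 4 were Nid1 (-0.31 ± 0.04), Lamc1 (-0.27 ± 0.04), Lama4 (-0.65 ± 0.13) and Lamb2 (-0.17 ± 0.06). Lamb2 lost its call when control replicate 3 was left out (edgeR adjusted p = 0.119), and likewise UVA replicate 1 (0.0635) or 3 (0.122). Of 15 tested ligands with an RGD motif or other integrin binding 7 fell and 5 rose, or 80% called beside 29.3% of all tested genes. Fn1, fibronectin, the ligand of alpha5beta1, had 4084 ± 86.4 CPM in control cells and 2683 ± 134 CPM with UVA (SD, n = 3), which is -0.61 ± 0.04 on the log2 scale (edgeR adjusted p = 1.14e-12), while its receptor gene Itga5 rose. Fbn1, fibrillin 1, was at -1.42 ± 0.07 and Thbs1, thrombospondin 1, at -1.75 ± 0.13, with Tnc, tenascin C, at -0.39 ± 0.04. The 5 that rose, chosen after their values were seen, were Spp1 (osteopontin), Mfge8, Npnt, Tgfbi and Tgfb1, at 0.30, 0.42, 0.22, 0.31 and 0.23. Of the 7 that fell, Fn1, Fbn1, Thbs1 and Tnc alone are named.

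**Figure D4:**
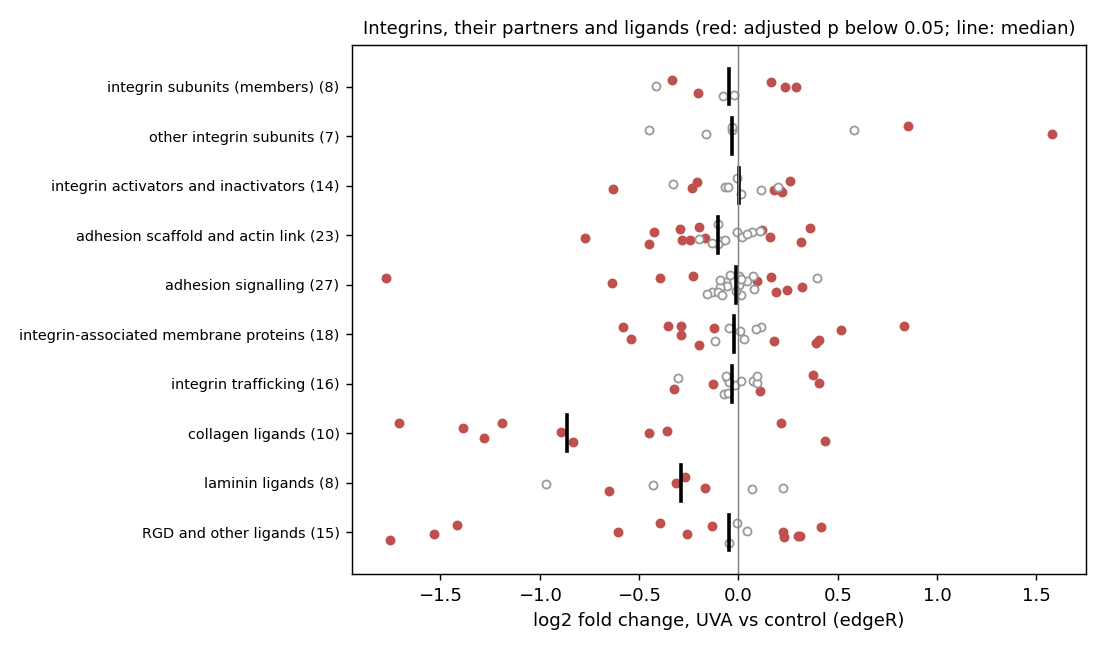
Log2 fold changes of UVA against control (x axis; edgeR) for each tested gene of the integrin subunits, partner lists and ligand lists (y axis, number tested in brackets); red points have an adjusted p below 0.05, open points do not, and black lines are list medians. The collagen ligands have the list median farthest from 0, at -0.86, and the 8 tested subunits described here lie within -0.42 and 0.29.

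Inside the cell, genes that switch integrins on or off were mixed, with 4 of 14 higher and 3 lower in UVA cells, where 14.7% of all tested genes were higher and 14.6% lower. Apbb1ip, whose product RIAM brings talin to the membrane, had 117 ± 2.22 CPM in control cells and 75.5 ± 10.3 CPM with UVA (SD, n = 3), and was lower at -0.63 ± 0.07 on the log2 scale (edgeR adjusted p = 1.07e-08). The talin-binding Kank2 was at -0.23 ± 0.05 and Tln2, talin 2, at -0.21 ± 0.06; leaving out control replicate 3 ended the Tln2 call (adjusted p = 0.0566), as did UVA replicate 2 (0.0562). Rap1b, a small GTPase upstream of talin, rose at 0.26 ± 0.04, and the other 3 that rose, named after their values were seen, were Itgb1bp1, Dok1 and Krit1, at 0.22, 0.21 and 0.18. Without control replicate 3 the list had 2 higher and 2 lower.

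Of 23 tested scaffold genes that tie integrins to actin, 8 fell and 4 rose with UVA, a median of -0.10. That is 52.2% called, beside 29.3% of all tested genes, in a list chosen with earlier results of these data known. Tns2, a tensin that binds beta tails, was at -0.77 ± 0.08, Zyx (zyxin) at -0.45 ± 0.06 and Tns1 at -0.43 ± 0.06, while the crosslinker gene Actn4 rose at 0.36 ± 0.04. Pxn, Tns3 and Parvb, named after their values were seen, rose too, at 0.16, 0.12 and 0.32. Vcl (vinculin), Csrp1, Lpp, Flnc and Trip6, likewise named afterwards, fell at -0.29, -0.29, -0.24, -0.20 and -0.17. Of 27 signalling genes 4 fell and 5 rose, or 33.3%, close to the 29.3% of all tested genes. Elmo1, which with DOCK1 activates Rac, fell at -1.78 ± 0.17, the adaptor gene Nedd9 at -0.64 ± 0.07 and the kinase gene Pak1 at -0.40 ± 0.05; Elmo2, named after its value was seen, was at -0.23. The 5 that rose were Rasa1 at 0.32 ± 0.05, which overlaps Ccnh on the other strand, and Rac1, Rhoa, Git1 and Pak2, named after their values were seen, at 0.10, 0.25, 0.16 and 0.19.

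Among 18 membrane proteins that work beside integrins 7 fell and 5 rose, or 66.7% called beside 29.3% of all tested genes. That list too was chosen with earlier results of these data known. Of 3 collagen receptors outside the integrin family, Ddr1 did not pass, at 0.09 ± 0.07 (edgeR adjusted p = 0.372), and the others fell: Ddr2, a receptor kinase for fibrillar collagen, at -0.58 ± 0.05 and Mrc2, an endocytic collagen receptor, at -0.54 ± 0.05. Plaur, the urokinase receptor, had 54.3 ± 3.54 CPM in control cells and 96.5 ± 17.1 CPM with UVA (SD, n = 3) and rose at 0.83 ± 0.08 on the log2 scale (edgeR adjusted p = 2.08e-09), and the hyaluronan receptor gene Cd44 rose at 0.39 ± 0.04. Cd9, Cd63 and Ano6, named after their values were seen, rose at 0.51, 0.18 and 0.41. All 5 that rose are thus named, but of the 7 that fell Ddr2 and Mrc2 alone. Of 16 tested trafficking genes 3 rose and 2 fell, or 31.2%, a share near the 29.3% of all tested genes. Rab21, which binds integrin alpha tails and moves them into endosomes, was at 0.38 ± 0.04, Eps8 at 0.40 ± 0.04 and Rcc2 at 0.11 ± 0.04, with Gga3 at -0.32 ± 0.09 and Dnm2, named after its value was seen, at -0.13. The trafficking count dropped to 2 higher and 0 lower without control replicate 1, and to 2 higher and 1 lower without control replicate 2 or UVA replicate 2. Rcc2 was no longer called when control replicate 1 (adjusted p = 0.11) or 2 (0.0969) or UVA replicate 2 (0.107) or 3 (0.0579) was left out. Gga3, which overlaps Mrps7 on the other strand, lost its call without control replicate 1 (0.0699).

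With α-arbutin, 0 genes of these partner and ligand lists were called against UVA cells by edgeR, and 1 ligand was called lower when UVA replicate 3 was left out. At an unadjusted p below 0.05 there were 1 of 7 other subunits, 2 of 14 activators, 4 of 23 scaffold genes, 1 of 27 signalling genes, 1 of 18 membrane proteins and 0 of 16 trafficking genes. There were also 2 of 10 collagens, 2 of 8 laminins and nidogens and 2 of 15 other ligands, where 6.76% of all tested genes reached this. For 2 of the 10 collagens and 3 of the 8 laminins and nidogens, all co-treated libraries lay above all UVA libraries, and for 0 below. Of all tested genes 5.45% lay above and 5.31% below. In the other lists 1 activator, 1 scaffold and 1 trafficking gene lay above, and 1 other subunit, 1 activator and 3 signalling genes below. Named after their values were seen, Nid1, Lamc1 and Col6a3 lay between UVA and control, and Lamb1 and Col4a2 farther from control than UVA. Fn1 was at 0.06 ± 0.04 (95% interval -0.02 to 0.14), Col1a1 at 0.03 ± 0.07 (-0.12 to 0.18) and Itgb7 at 0.05 ± 0.07 (-0.09 to 0.19) in that comparison. Itga10, with its few counts, was at -0.82 ± 0.32 (edgeR adjusted p = 0.664), and its co-treated libraries all lay below its UVA libraries.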

How the data were processed

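RNA of 9 NIH/3T3 libraries was analysed, 3 each from control, UVA and co-treated cells. Groups came from titles and treatment labels; the UVA titles read MOCK, and the NC columns were read as control because the other prefixes match the other titles. Per the file headers, the authors deposited raw counts and FPKM values per Ensembl gene, with exonic sizes. Build mm39 is named by the submitters' processing notes, as are HTSeq 0.6.1, HISAT2 2.2.1, cutadapt 1.9.1 and bcl2fastq 2.20.0.422, without their roles. The sources used here give no strand setting or annotation release. The deposited FPKM equals count over exonic size and library total in 510219 of 510219 values within 0.01.

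Genes were tested with edgeR 4.0.16 in R 4.3.3 (filterByExpr, TMM, quasi-likelihood F-test, two-sided, all 9 libraries, group only), Benjamini-Hochberg adjusted over 14151 genes per comparison and called below 0.05; unless another tool is named, adjusted p-values are from it. It was also run on simulated data in which 200 genes changed, each by more than the subunits called with UVA. That run does not show how well changes of their size are found. Alternatives used limma 3.58.1 and DESeq2 1.42.0. Replicates differed by more than sampling noise (2.29 to 5.18 times per gene) and were counted separately. The members and lists were chosen with earlier results of these data known. Named by rule besides the members were up to 4 genes per list with the smallest p, and the 3 genes nearest Itga6 and Itgb5, provisional symbols left out. Further genes were named outside that rule, many of them after their values were seen. Depth was 16298348 to 20862894 counts. The floor on few counts covers counting error only, while the edgeR intervals also carry the spread between libraries. Shares were computed from counts per exonic base.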

Additional observations from a re-analysis of the deposited data

How the results depend on the processing

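The 5 subunits called with UVA kept their call and direction in all 19 alternatives: other size factors, no filter, a stricter filter, DESeq2, limma on FPKM with a pseudocount of 1 or 0.1, on TPM and on quantile normalized CPM, the 2 groups alone, the replicate block, and each of the 9 libraries left out. The count stayed 5, and stayed 0 for co-treated against UVA cells; for co-treated against control it ran from 4 to 6. Log2 fold changes with UVA ran from 0.23 to 0.33 for Itga6, 0.11 to 0.18 for Itga3, 0.18 to 0.28 for Itga5, -0.25 to -0.18 for Itgav and -0.38 to -0.29 for Itgb5. Signs turned for uncalled values alone: Itga7 with UVA ran from -0.23 to 0.11 with 1 library left out (0.11 without control replicate 2, 0.03 without UVA replicate 1), and Itgb1 in co-treated against UVA cells was 0.0198 with quantile normalization and 0.0110 on TPM; the cause was not tested. Itga3 in co-treated against control cells also lost its call with no filter (adjusted p = 0.0939) and by limma on TPM (0.101), and Itgb3 by limma on FPKM (0.0741 and 0.0693) and TPM (0.0611). By limma on TPM, the split of all genes called with UVA was 1184 higher and 2288 lower, against 2078 and 2064. For partner lists and genes the alternatives were chosen after seeing the data; activators fell from 7 to 3 calls by limma on FPKM, and trafficking genes from 5 to 3 with no filter or quantile normalization. Same-numbered libraries correlated at -0.0114 to 0.0701 in their deviations from group means, and 7 of 9 libraries correlated best with their own number. With the replicate block the subunit counts were 5, 0 and 6, and all calls went from 4142 to 4359, 5 to 19 and 3657 to 3930. Depth limits Itga1, Itga11, Itga7 and Itgb3.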
